A study of Mus musculus with 24 samples.

Results

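Early postconditioning (PostC) was set against ischemic preconditioning (PreC) in the mouse heart, on 12 of the 24 arrays of the series. The 12 arrays were chosen by the label of the RNA in channel 2 and comprised 6 PostC and 6 PreC arrays, which are 3 replicate numbers in both dye orientations of each group. Every heart came from an anesthetized C57BL/6 mouse whose coronary artery was occluded for 40 min and reperfused for 60 min. PostC hearts had 3 cycles of 1 min of occlusion and 1 min of flow that began 1 min after reperfusion. PreC hearts had the same 3 cycles 10 min before the long occlusion. In both groups the RNA came from the ischemic region of the heart, and RNA of the ischemic region of hearts with occlusion and reperfusion alone (IR) filled channel 1 of each array. The labels do not say how old or of which sex the mice were, or whether a replicate number stands for 1 heart or a pool. The p-values below therefore measure only how far these samples vary, and that variation may be technical.

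Preconditioning and postconditioning are both known to limit infarct size after a coronary occlusion. In each, brief interruptions of flow are thought to engage survival kinases and to delay opening of the mitochondrial permeability transition pore when blood returns. They differ in when the stimulus acts, before the injury or during early reflow. In these hearts the conditioning cycles also lay nearer to the end of reperfusion after PostC than after PreC, so the kind of protocol and the time since the cycles cannot be told apart.

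The arrays carried 16463 mouse probes. No file used here gives a gene for a probe ID, and a search of the GRCm38.p6 gene table for the IDs found 0. Genes, gene lists and the markers of heart tissue could therefore not be examined, and results are given for probes by brightness, direction and sample. Ratios are log2 of the group's RNA over IR RNA. Each difference is PostC minus PreC within a replicate number, so a value above 0 means a higher level in PostC. These directions are likely and not settled, since they rest on the numbering of the channels in the files. On 12 of 12 arrays the channel with the higher background was the one the labels give as Cy3. The correlation among PostC and PreC arrays of the same orientation ran from r = 0.0665 to 0.456.

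A spot was called detected when its signal over background exceeded the 95th percentile of empty spots on that array. In the group's channel 34.3%, 35.7% and 34.9% of mouse spots were detected in PostC numbers 1, 2 and 3, against 43.3%, 36.5% and 39.9% in PreC numbers 1, 2 and 3. The groups did not overlap, and the mean was 34.9 ± 0.706% in PostC and 39.9 ± 3.4% in PreC (SD, n = 3 each). An exact two-sided permutation test gave p = 0.1, the smallest that 3 against 3 allows. At the 99th percentile the PostC values, 14.8%, 14.4% and 13.6%, overlapped the PreC values, 19.5%, 13.96% and 19.8% (exact permutation p = 0.3). In the IR channel the shares were 42.2 ± 1.30% on PostC arrays and 44.8 ± 3.8% on PreC arrays (SD, n = 3 each, exact permutation p = 0.4).

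The first question was whether any transcript differed in level between the protocols. With all 12 extract pairs of the series in one limma fit and the replicate number as a block, 0 of 16378 probes passed a Benjamini-Hochberg adjusted p of 0.05, which is 0% of those tested. The smallest adjusted p was 0.119. An unadjusted p under 0.05 was reached by 1797 probes (11.0%), with 804 (4.91%) higher and 993 (6.06%) lower in PostC. Without the pairing 1340 probes reached it and again 0 passed after adjustment. In tissue RNA of this kind fewer cells of a type and less RNA per cell cannot be told apart.

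Whether any probe passed depended on which groups shared the estimate of spread. With PostC and PreC alone in the paired fit, 29 probes (0.177%) passed in limma, 2 higher (0.0122%) and 27 lower (0.165%) in PostC. With Post30, hearts that had the same cycles 30 min after reperfusion, added, 69 (0.421%) passed, 5 higher (0.0305%) and 64 lower (0.391%) in PostC. Without the replicate number as a block, 0 passed in either fit. Of the 69, 27 were among the 29. The arrays of the non-ischemic region took no part in these fits. In the fit with 3 groups the count was 0 without background subtraction, with plain subtraction, after median centring and in the authors' values. It was 0 without replicate number 1 or 3 and 3 without number 2, and 0 of those 3 were among the 69.

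The 69 probes ranged from -1.07 to 0.66. Their median absolute difference was 0.49 on the log2 scale, and 16 of them reached 1.5-fold. All 69 had 1 sign in the 3 numbers, as did 32.7% of all probes. On most of the 12 arrays 67 were detected, as were 5793 of all 16378 tested. The selection on this contrast itself favours both values. For the 64 that fell in PostC, the median ratios over IR stood at -0.38 in PostC and at 0.10 in PreC. The same 64 stood at -0.14 in Post30 and at -0.22 in the non-ischemic region of IR hearts. All 64 had a PostC mean below IR, and 55 had a PreC mean above it. Of all 16378 probes, 3766 had PostC below and PreC above IR. Selection on PostC minus PreC favours such opposite sides, which were not tested.

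The probes at an unadjusted p under 0.05 in the fit of all groups had the same shape. The 993 that lay lower in PostC had a median ratio over IR of -0.17 in PostC and 0.08 in PreC, and in 818 of them PostC stood below and PreC above IR. The 804 that lay higher had medians of 0.13 in PostC and -0.09 in PreC, and 677 of them stood above IR in PostC and below it in PreC. Over all 16378 probes PostC stood below and PreC above IR in 3766, and the reverse held in 3830. The level in PostC and the level in PreC are both measured against IR, and the contrast between them chose these probes, so the opposite sides describe the selection and were not tested. Post30 medians lay between, at -0.052 for the 993 and 0.026 for the 804. Those of the non-ischemic region lay there too, at -0.055 and 0.027, so the middle position was not particular to Post30.

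Low p-values were more frequent among bright probes. Probes were sorted by mean log2 intensity into 4 equal bins. The share at an unadjusted p under 0.05 was 4.93% in the dimmest bin, 5.79% and 10.6% in the next bins and 22.6% in the brightest. The share with 1 sign in all 6 differences (3 numbers in both dye orientations) was 3.08%, 3.66%, 9.79% and 26.3% in the same order, against 10.7% of all probes (4.85% higher and 5.86% lower in PostC). In the brightest bin 382 probes at an unadjusted p under 0.05 lay higher and 542 lower in PostC.

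**Figure D1:**
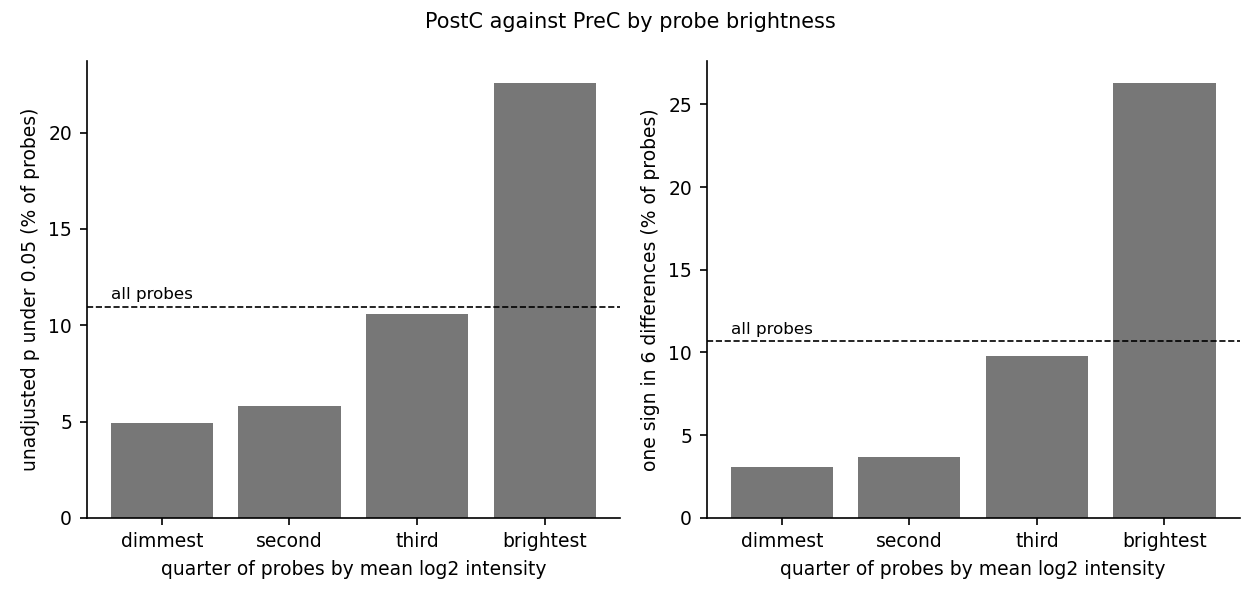
Bars give the percentage of probes with an unadjusted p under 0.05 (left) and with 1 sign of PostC minus PreC in all 6 differences (right), in 4 equal bins of mean log2 intensity; dashed lines mark all probes. The brightest bin reached 22.6% and 26.3%, against 11.0% and 10.7% of all probes.

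The fit also bounded how large a difference could be. Of the 5793 tested probes detected on most arrays, 5555 (95.9%) had a 95% interval of the difference within 1.5-fold in either direction. Their median interval was the difference plus or minus 0.18 (log2). Mean differences of 1.5-fold or more were found for 40 probes (0.244%), 13 higher and 27 lower in PostC. Of the 40, 37 were detected on most arrays, against 5793 of all 16378 tested. The part of the offset in that contrast was not tested. The 5th and 95th percentiles of the differences of detected probes were -0.29 and 0.23. These bounds hold for the offset used here. Plain subtraction widened the differences within single numbers to an SD over all probes of 0.740 (log2, mean over numbers), against 0.190. That measure is wider than the SD of the mean differences, which was 0.127 over all probes with the offset used here.

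The replicate numbers were then compared as separate measurements of the same difference. Across the 5793 detected probes, which are not independent replicates, the paired difference of number 1 correlated with that of number 3 with r = 0.485. Numbers 1 and 2 gave r = 0.176, and numbers 2 and 3 gave r = 0.216. In the undetected probes r was 0.0645, 0.0464 and 0.0187 for numbers 1 and 2, 1 and 3, and 2 and 3. Different numbers share no array of the comparison, while all share the probes and the processing, and whether the IR RNA came from 1 stock is not in the labels. Leaving out probes at 2-fold or more in any number gave 0.243 for numbers 1 and 2, 0.482 for 1 and 3, and 0.365 for 2 and 3.

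**Figure D2:**
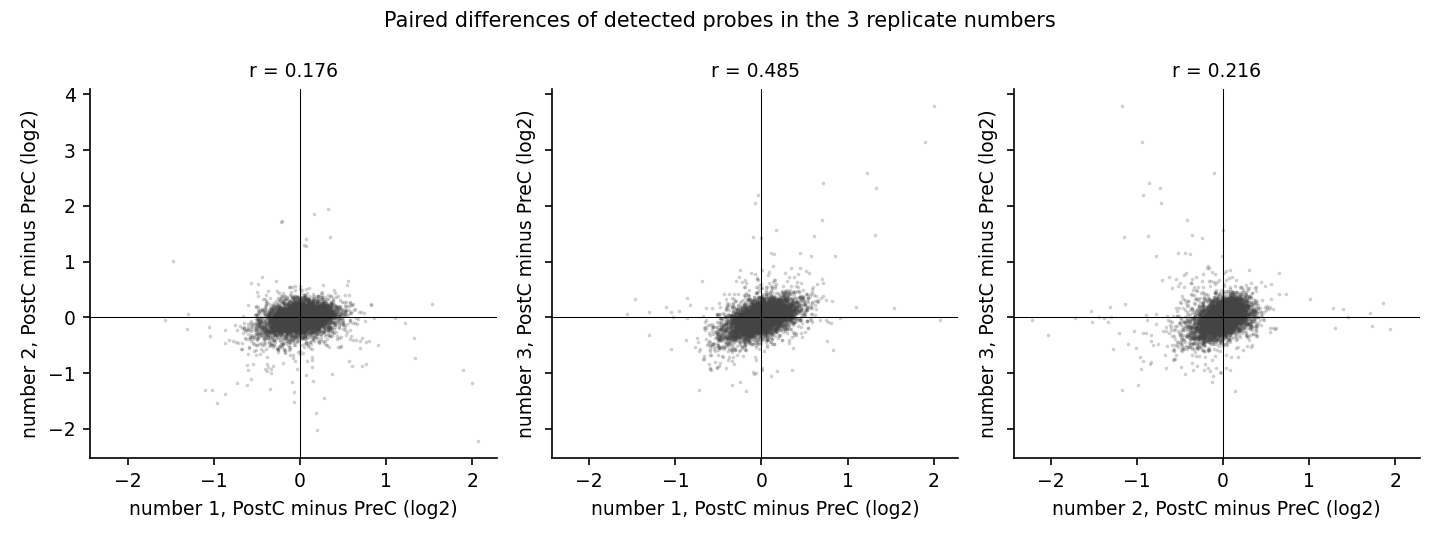
Each point is 1 of 5793 detected probes, and both axes give PostC minus PreC in log2 units in a pair of replicate numbers. The cloud is longest along the diagonal for numbers 1 and 3 (r = 0.485) and rounder for numbers 1 and 2 (r = 0.176) and 2 and 3 (r = 0.216).

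Dye orientation gave a second check on the same extracts. Between the orientations of a number the differences of detected probes correlated with r = 0.670 in number 1, 0.474 in number 2 and 0.697 in number 3. Between numbers within Cy5 the values were 0.160, 0.371 and 0.186 for numbers 1 and 2, 1 and 3, and 2 and 3. Number 2 thus agreed least with the others in the averaged ratios and had the lowest agreement between its own orientations.

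The IR channel of the same arrays served as the background of the comparison. For each number and dye, the PostC array was set against the PreC array channel by channel, with the same loess normalization. In detected probes the group's channel had an SD of 0.250 to 0.411 (log2) over the 6 array pairs, with a mean of 0.326. The IR channel, which held IR RNA on both arrays, had an SD of 0.146 to 0.376 and a mean of 0.243, and was below the group's channel in 6 of 6 array pairs. Over all probes, most of them undetected, the group's channel was the wider in 4 of 6 pairs. Averaged over dyes, the group-channel differences of detected probes correlated between numbers with r from 0.107 to 0.340, and those of the IR channel with r from -0.0153 to 0.0141.

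The 6 extract pairs were also summarised by principal components of the detected probes. The first held 32.8% of the variance and the second 27.5%. On the first, the scores were -2.83, -1.53 and -12.1 in PostC numbers 1, 2 and 3, against 9.56, 5.49 and 1.38 in PreC numbers 1, 2 and 3. The groups did not overlap there, and within both groups the second component placed number 1 lowest, at -7.72 in PostC and -6.85 in PreC. The same-numbered samples of PostC and PreC deviated together from their group means, with r = 0.254, 0.222 and 0.215 in numbers 1, 2 and 3. Differently numbered ones gave r from -0.202 to -0.0223. Deviations from a group mean cancel out over the numbers. Positive same-number values thus force negative ones elsewhere on balance, and the contrast is no separate check.

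Of the 4167 tested probes detected on all 12 arrays, 1063 had 1 sign in all 6 differences, 501 higher and 562 lower in PostC. The probes with the smallest p in each direction among them are given by ID. Their 1 sign in 3 of 3 numbers follows from this choice. None of the 4 passed in the fit of all groups. Mm::M200002875 had ratios over IR of 0.14, -0.11 and 0.37 in PostC numbers 1, 2 and 3, against -0.27, -0.54 and -0.26 in PreC. All PostC values lay above all PreC values, as in 6.51% of probes. In either direction 14.1% of probes did not overlap. The difference was 0.49 (SE 0.093, limma adjusted p = 0.119), higher in 3 of 3 numbers. In Post30 it averaged -0.01 ± 0.31, and the non-ischemic region gave -0.29 ± 0.14 (SD, n = 3 each).

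Mm::M200000743 had ratios of 0.62, 0.54 and 0.41 in PostC, against 0.22, 0.05 and -0.16 in PreC. The groups did not overlap, and the difference was 0.49 (SE 0.10, limma adjusted p = 0.127), higher in 3 of 3 numbers. This probe stood above IR in Post30 too, at 0.40 ± 0.06, while non-ischemic tissue gave 0.19 ± 0.25 (SD, n = 3 each).

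Mm::M200000279 had the smallest p of all probes. Its ratios were 0.16, -0.34 and -0.15 in PostC, against 0.64, 0.13 and 0.39 in PreC. PostC number 1 lay above PreC number 2, so the groups overlapped, while each number taken by itself differed by nearly the same amount, -0.48, -0.47 and -0.54. The mean difference was -0.50 (SE 0.075, limma adjusted p = 0.119), lower in 3 of 3 numbers. Post30 averaged -0.04 ± 0.16, and non-ischemic tissue 0.05 ± 0.29 (SD, n = 3 each).

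Mm::M200011720 had ratios of -0.24, -0.40 and -0.36 in PostC, against 0.31, -0.00 and 0.18 in PreC. The groups did not overlap, as in the 7.64% of probes that lay lower in every PostC sample. The difference was -0.49 (SE 0.079, limma adjusted p = 0.119), and Post30 stood at -0.21 ± 0.16 (SD, n = 3). In the paired fit of PostC, PreC and Post30 the adjusted p of the 4 probes in limma was 0.0474, 0.0481, 0.0359 and 0.0330, in the order described. With PostC and PreC alone it was 0.0513, 0.0479, 0.0463 and 0.0479. The size of the differences rested on the background correction. With an unscaled offset of 50 the 4 differences were 0.16, 0.054, -0.090 and -0.077 in the same order, and with plain subtraction that of Mm::M200000743 was 0.81.

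**Figure D3:**
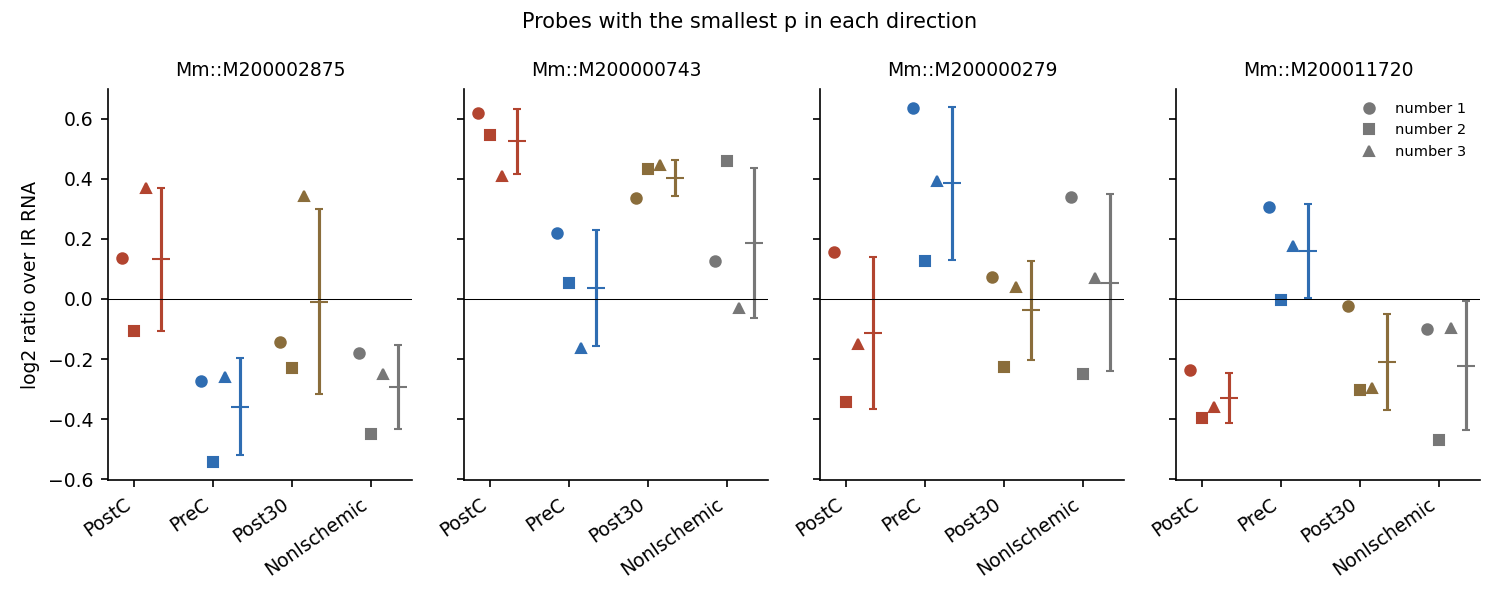
Each panel is 1 probe and the y axis gives the log2 ratio over IR RNA; symbols are extract pairs by replicate number, and bars are the mean and SD of 3. PostC lies above PreC in the left pair of panels and below it in the right pair, with an overlap only in Mm::M200000279.

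Probes with large differences were few, and they split by number. In number 1, 156 of 16378 probes differed by 1.5-fold or more, in number 2 127 and in number 3 144. Only 9 did so in all 3 numbers, and they were picked after their values were seen. Of these, 4 lay lower in PostC in every number, with differences of -0.73 to -0.60 in number 1, -1.17 to -0.66 in number 2 and -1.31 to -0.83 in number 3. They were detected on 12 of 12 arrays, as were 4167 of the 16378 tested probes. The strongest had ratios over IR of -1.20, -0.46 and -0.56 in PostC, against -0.47, 0.71 and 0.75 in PreC, with a mean difference of -1.07 (SE 0.23, limma adjusted p = 0.145). PostC number 2 lay just above PreC number 1, so these groups touched. All 4 were among the 29 and the 69 that passed with fewer groups in the fit.

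The other 5 of the 9 probes all lay higher in PostC in numbers 1 and 3 and lower in number 2. Their differences were 0.61 to 1.999 in number 1, -1.17 to -0.73 in number 2 and 1.45 to 3.796 in number 3. The one with the largest mean difference on the arrays is printed on 17 spots, which had a median SD of 0.57 (log2) within an array. Its ratios over IR were 0.10, -2.43 and 1.61 in PostC, against -1.90, -1.27 and -2.18 in PreC. PostC number 2 was the lowest of the 6 samples and PostC number 3 the highest. Its mean difference of 1.54 had an SE of 0.63 (limma adjusted p = 0.387), and the mean therefore describes none of the 3 numbers. The same probe lay at -0.31, -1.41 and 1.26 in Post30 and at -1.02, -3.87 and -1.84 in the non-ischemic region, lowest in number 2 both times.

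**Figure D4:**
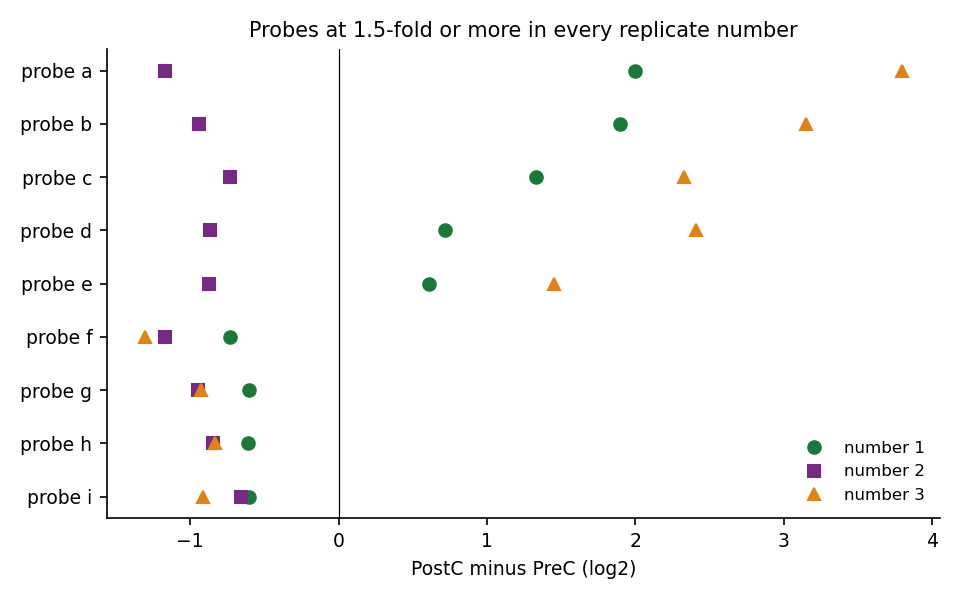
Rows are the 9 probes at 1.5-fold or more in every number, lettered here for reference, and the x axis gives PostC minus PreC in log2 units with a symbol for each number. In probes a to e number 2 lies on the opposite side of 0 from numbers 1 and 3, and in probes f to i all numbers lie below 0.

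The arrays also carry control probes named 1DR to 6DR, on 144 spots, and 1RC to 4RC. The sources used here do not say what they bind. Relative to the mouse probes the mean log2 ratio of 1DR to 6DR over IR was 0.71, 0.81 and 0.73 in PostC numbers 1, 2 and 3, against -0.08, 0.15 and -0.20 in PreC. The groups lay far apart, with a difference of 0.79 (SE 0.077) that was positive in 3 of 3 numbers, and an exact two-sided permutation test gave p = 0.1, the smallest possible with 3 against 3. Singly, these 6 controls differed by 0.67 for 1DR to 0.99 for 2DR. The mean difference of 1RC to 4RC was 0.60 (SE 0.074), from 0.45 for 3RC to 0.74 for 2RC. Under median centring 1DR to 6DR differed by 0.83 (SE 0.10). All mouse-probe differences above are relative to the bulk of mouse probes, whose median difference was 0.0014. Measured against 1DR to 6DR the median mouse probe would lie lower in PostC by about 0.79, and against 1RC to 4RC by about 0.60. The size of such a shift depended on the control and the processing, as 1DR to 6DR gave 0.64 with an offset of 50. The part of this shift, and of the lower detected share in PostC, in the probe differences was not tested.

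**Figure D5:**
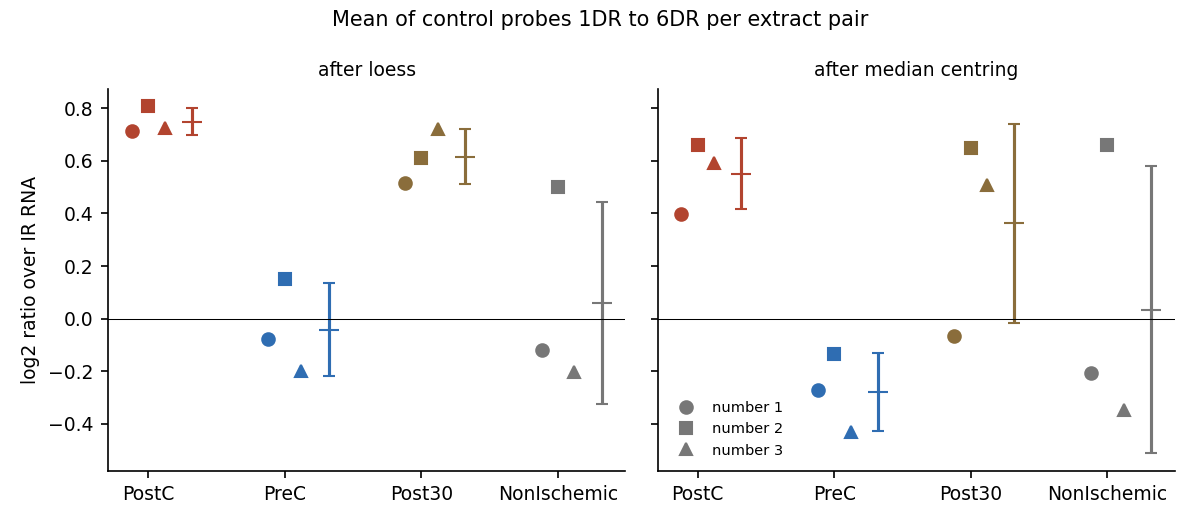
The y axis gives the mean log2 ratio over IR of control probes 1DR to 6DR for each extract pair, after loess (left) and after median centring (right), with the mean and SD of 3 beside the symbols. PostC stood at 0.71 to 0.81 and PreC at -0.20 to 0.15 after loess, and PostC and PreC did not overlap in either panel. Post30 stood at 0.52 to 0.72 after loess, and at -0.07, 0.65 and 0.51 in numbers 1, 2 and 3 after median centring. The non-ischemic region stood at -0.12, 0.50 and -0.20 after loess, and at -0.21, 0.66 and -0.35 after median centring.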

How the data were processed

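The authors deposited, per the file headers, foreground and background intensity of 2 channels and a quality mark for 17664 spots per array, and a table of processed log2 ratios. That table's scale and centring (column medians -0.013 to 0.0083) were found by comparison, and how it was normalized is not stated. Its sign was turned, since it correlated positively with log2 IR over group (r from 0.377 to 0.568). Per the labels' protocols, RNA was amplified and split between Cy3 and Cy5.

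Background was corrected here with normexp and each array normalized by loess in limma 3.58.1 (R 4.3.3), with control and empty spots (1009) at weight 0. Intensities reached only 1356, so the offset of 50 was scaled by that over 65535 to 1.03. Marked spots (2 to 25 on each of the 24 arrays) were left out, except where arrays were compared channel by channel. Spots of a probe and both dye orientations were averaged. A probe needed values in all 6 PostC and PreC extract pairs. limma fitted group and replicate number to 12 extract pairs (6 residual degrees of freedom), with Benjamini-Hochberg adjustment over all probes. The numbers, taken from the labels, pair PostC with PreC. Every same-number correlation of these groups exceeded 0.1 (0.215 to 0.254), which is no separate check of the pairing. With the non-ischemic region, which shares the block in the main fit, number 3 gave only 0.0747 for PostC and 0.00996 for PreC. Numbers 1 and 2 gave 0.160 and 0.246 for PostC, and 0.219 and 0.251 for PreC. Named IDs are the 2 of smallest p in each direction, detected on all 12 arrays with 1 sign in 6 differences. The fit was tested on simulated data. The array number limits precision. Fixed gene lists and markers went untested without gene names. One PostC array has a title unlike the others, and its channel label set its group. The members, lists and tests were chosen with earlier results of these data known.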

Additional observations from a re-analysis of the deposited data

How the results depend on the processing

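The paired fit of all groups gave 0 probes past the threshold. It gave 29 with PostC and PreC alone and 69 with Post30 added, 1 without background subtraction, 1 in the authors' values and 3 from channel 2 alone, while 0 passed under the remaining settings that kept all numbers, among them an adjusted p under 0.1. Leaving out a replicate number gave 0 to 9, the 9 without number 2, of which 8 lay higher in PostC. Added after seeing the data, fits of PostC, PreC and Post30 gave 20 with an offset of 50, 0 to 3 without a number, and 0 under the other processing settings and without the replicate block. An unadjusted p under 0.05 in limma was reached by 1797 probes, 11.0% of those tested (804 higher, 993 lower). The fit after median centring gave 753, or 4.60% (256 higher, 497 lower). The fit of detected probes alone gave 1140 of 5793, a larger share of 19.7%. Without the replicate block the fit of all groups gave 0 past the threshold and 1340 at an unadjusted p under 0.05. In fits of fewer groups 0 passed without the block, and with Post30 included 0 also passed under several paired settings. The 1DR to 6DR difference of 0.79 was 0.64 with an offset of 50, and 0.72 to 0.86 without a number. The mean SD of paired differences, 0.190, was 0.225 without background subtraction, 0.740 with plain subtraction, 0.0407 with an offset of 50 and 0.223 in detected probes. The 4 named probes kept their sign under all 18 alternatives, which was largely fixed in advance. They were chosen for 1 sign in 6 differences, and several alternatives leave the difference itself unchanged. Their size was not kept. An offset of 50 brought it to 0.054 to 0.16 in those higher and -0.090 to -0.077 in those lower in PostC. The correlation of numbers 1 and 3 ran from 0.348 to 0.569 over the settings tried. The cause of these changes was not tested, except that fewer probes were tested among detected ones.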
